A study of Mus musculus with 14 samples.

Results

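The genes described here are the WNT ligands, the R-spondins, the Frizzled and LRP receptors, the secreted WNT antagonists and a few intracellular WNT effectors, 50 of the 21819 protein-coding genes among the 52636 rows of the count table. They were picked out by symbol, and the list was drawn up with earlier results of these data known. It held 19 Wnt genes, Rspo1 to Rspo4, 10 Fzd genes with Lrp5 and Lrp6, and 9 antagonists (Sfrp, Dkk and Wif1). The effectors were Axin2, Ctnnb1, Lef1, Tcf7, Tcf7l1 and Tcf7l2. RNA was sequenced from cells that fluorescence-activated sorting had separated from the wound bed of mouse dermis, 5 days after injury. Every library came from male C57/BL6 mice at 7 weeks of age, and each of the 7 groups held 2 libraries. A new set of libraries held Adipocyte (fat cells), AdipoqTraced (named in the sample labels for the fat-cell gene Adipoq and described there as GFP) and CD26 (the product of Dpp4). A set taken over from an earlier series held AP_CD9Low, AP_CD9High, CD29 (the product of Itgb1) and DN. In the column headers of the count table, CD29 is written CD29High and DN is written CD29Low (DN). The labels leave the letters AP and DN unexplained and give no sorting gates. They also name neither the allele behind AdipoqTraced nor the number of animals behind a library. Each population belonged to 1 set only, so that set and population cannot be told apart. All comparisons were made within a set, but from 1 fit to the libraries of both sets.

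WNT proteins are secreted, lipid-modified ligands that bind Frizzled receptors on the cell surface. With LRP5 or LRP6 as co-receptor the signal keeps beta-catenin from being degraded, so that it can act with TCF and LEF factors on target genes such as Axin2, while other ligands, Wnt5a among them, are best known for signalling without beta-catenin. Secreted Frizzled-related proteins (SFRP) and WIF1 bind the ligands, Dickkopf proteins bind the LRP co-receptors, and R-spondins raise the receptors' number at the surface by holding back the ligases that remove them. In fat tissue, WNT signalling through beta-catenin is known to hold back the making of adipocytes, and in wounded skin it is known for its part in fibroblasts and in hair follicle formation.

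Library totals were 13760557 to 22218364 reads. The mitochondrial genome took 79.07% and 84.79% of the reads in the Adipocyte libraries, which left 2952186 and 3255546 others, against 10081318 to 22133663 in the remaining 12 libraries. A count of 3 reads was therefore worth 0.704 and 0.586 CPM (reads scaled to a common library size) in the Adipocyte libraries and at most 0.207 elsewhere. All levels are CPM scaled by TMM, the trimmed mean of M values. The adipocyte markers Adipoq, Plin1, Cidec, Lep, Fabp4 and Pnpla2 summed to 8011 and 5324 CPM in Adipocyte, 69.4 and 57.2 in AdipoqTraced and 26.9 and 38.5 in CD26, with Lep at 0 in every library outside Adipocyte. The fibroblast markers Pdgfra, Col1a1, Col1a2, Col3a1, Dcn and Lum summed to 47500 to 149000 CPM in the libraries other than Adipocyte, and to 6554 and 13910 in Adipocyte. Dpp4 was at 130.5 and 140.3 CPM in CD26 against 39.5 and 44.0 in AdipoqTraced, and Cd9 was at 133.7 and 173.6 CPM in AP_CD9High against 48.1 and 45.4 in AP_CD9Low. Itgb1 was at 646 and 878 CPM in CD29, 578 and 589 in DN and 583 to 665 in the AP libraries, so that 1 CD29 library lay within the AP range. Cd9 was higher in CD29 and DN, at 183 to 213 CPM, than in AP_CD9High. In bulk libraries such as these, fewer cells of a type and less RNA per cell cannot be told apart.

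Of the 50 genes, 42 passed the filter on low counts and were tested. The other 8 were Dkk1, Dkk4, Wnt7a, Wnt8a and Wnt8b, with no read in any library, and Wnt1, Wnt3a and Wnt9b, which reached at most 0.771 CPM. Among the tested genes, 25 reached 10 CPM in at least 1 library and 17 did not. Calls are those of edgeR's quasi-likelihood test at 0.05 after Benjamini-Hochberg adjustment over 18394 genes, and 13 of the 42 were called in at least 1 comparison.

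**Figure D1:**
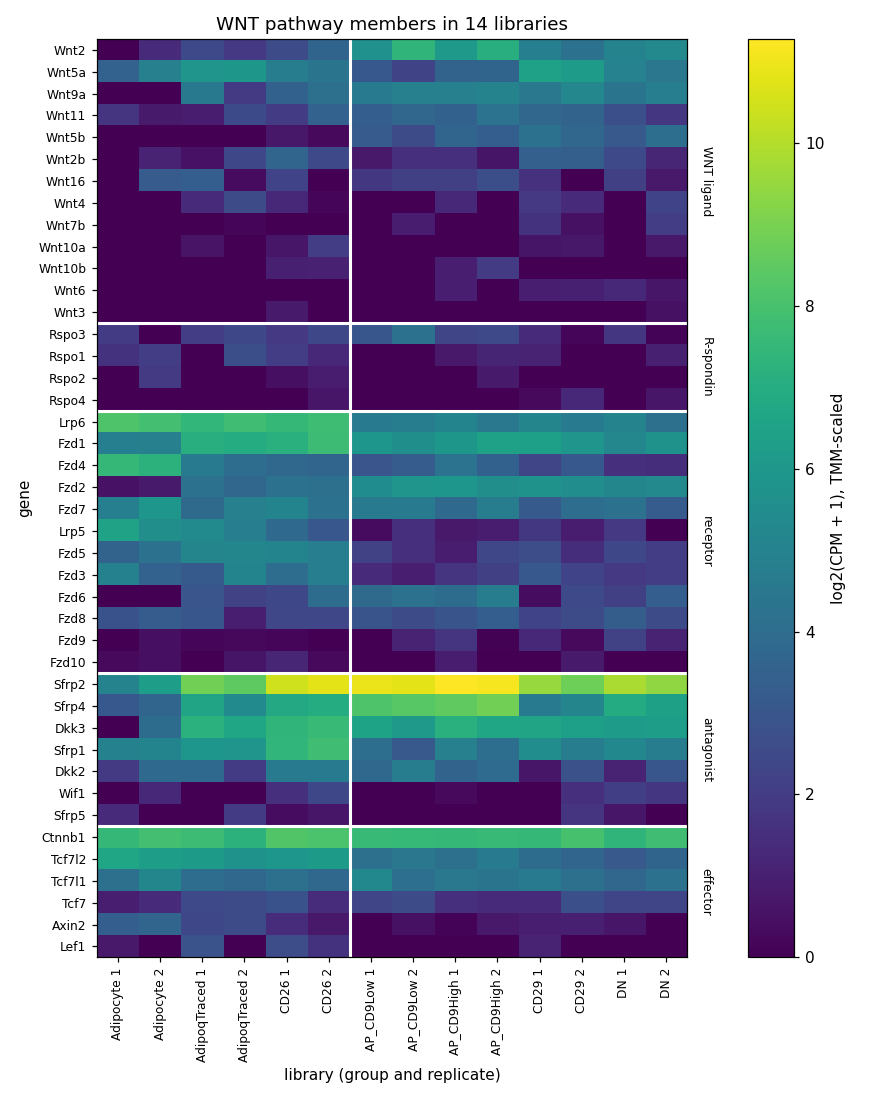
Level of the 42 tested WNT genes in each of the 14 libraries, as log2(CPM + 1) in colour, grouped by role, with the new set on the left and the reanalysed set on the right. Sfrp2 is among the highest in every library outside Adipocyte, Fzd4 is highest in Adipocyte, and Lrp5 and Lrp6 are lower across the reanalysed set.

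In AdipoqTraced against Adipocyte, 6 WNT genes were called higher and 1 lower, 16.7% of those tested, against 10.4% of all genes tested (5.61% higher, 4.83% lower). CD26 against Adipocyte gave 6 higher and 2 lower, 19% against 10.6% (5.45% higher, 5.19% lower). These comparisons share the Adipocyte libraries. AdipoqTraced against CD26 gave 2 lower, 4.76% against 3.86% of all genes (2.37% higher, 1.49% lower), a share near that of all genes. In the reanalysed set, CD29 against AP (the mean of AP_CD9Low and AP_CD9High) gave 2 higher and 4 lower, 14.3% against 4.39% (2.52% higher, 1.87% lower). DN against AP gave 2 higher and 4 lower, 14.3% against 6.75% (4.57% higher, 2.18% lower). Both of these share the AP libraries. AP_CD9High against AP_CD9Low gave 0 calls by edgeR and 0 by DESeq2, with 2 genes at an unadjusted p under 0.05 and 0.0217% of all genes called (0.0163% higher, 0.00544% lower). CD29 against DN gave 0 calls by edgeR, with 6 genes at an unadjusted p under 0.05 and 0.0598% of all genes called (0.0109% higher, 0.0489% lower), and 2 calls by DESeq2 (Sfrp4 and Fzd4).

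The median log2 fold change of the tested WNT genes was 0.08 in AdipoqTraced against Adipocyte, where that of all genes was 0.19. For CD26 against Adipocyte it was 1.39, beside 0.24 for all genes. It was 1.14 with genes at 0 in every library of a group set to their bound against 3 reads, and the 2 genes at 0 in both groups left out. The other medians were -0.24 (all genes 0) for AdipoqTraced against CD26, 0.34 (0) for AP_CD9High against AP_CD9Low, 0.16 (0.095) for CD29 against AP, 0.02 (0) for DN against AP and 0.23 (0.0025) for CD29 against DN. Treated in the same way, with 1, 5, 1, 1 and 2 genes at 0 in both groups left out, these became -0.25, 0.44, 0.17, 0.03 and 0.25. The medians of all genes were not treated so.

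**Figure D2:**
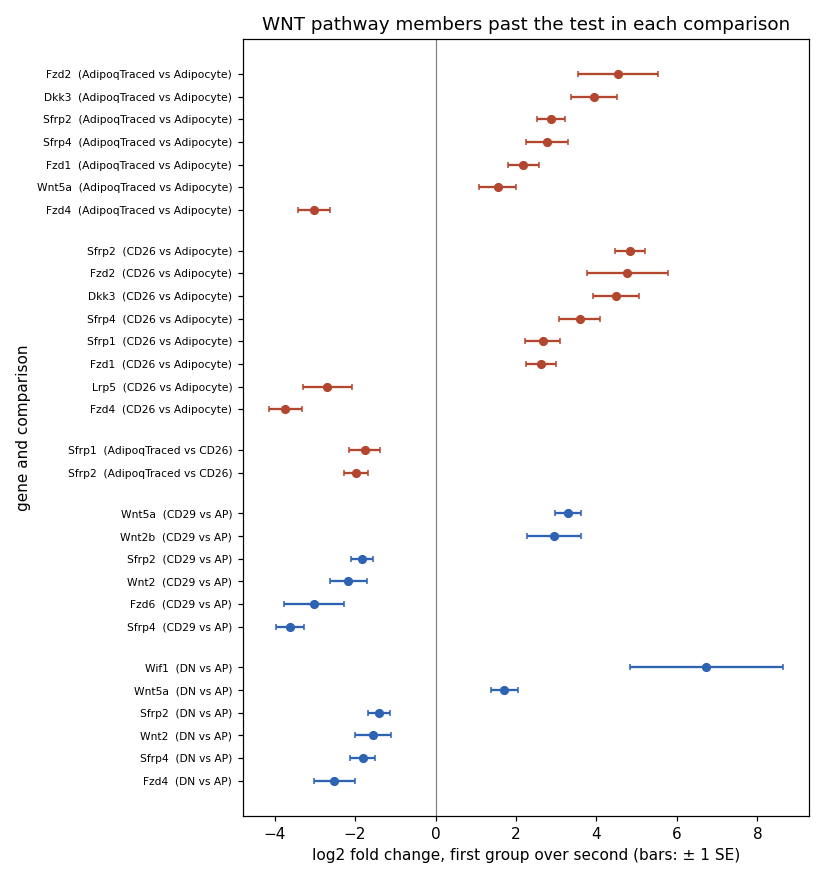
Log2 fold change of each called WNT gene in the comparisons that called it, with bars of 1 standard error, from edgeR's quasi-likelihood fit. Sfrp2, Sfrp4, Dkk3, Fzd1 and Fzd2 lie above 0 against Adipocyte and Fzd4 below it, and against AP Sfrp2, Sfrp4 and Wnt2 lie below 0 and Wnt5a above.

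Among the ligands, the main change lay between Wnt2 and Wnt5a in the reanalysed set. Wnt2, a ligand known to signal through beta-catenin, was lower in CD29 and in DN than in AP, and Wnt5a was higher in both. Wnt2 was at 50.8 and 166 CPM in AP_CD9Low, 64.8 and 134 in AP_CD9High, 28.1 and 17.6 in CD29, and 32.0 and 38.3 in DN. Wnt5a was at 7.48 and 4.02 CPM in AP_CD9Low, 11.1 and 11.4 in AP_CD9High, 86.0 and 71.3 in CD29, and 31.0 and 21.5 in DN. For both genes the AP libraries did not overlap those of CD29 or DN, though the Wnt2 libraries of AP differed widely among themselves. Within 1 library, which needs no scaling, the Wnt5a reads were 0.0243 to 0.172 times the Wnt2 reads in AP, 0.969 and 0.56 times in DN, and 3.07 and 4.05 times in CD29.

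Wnt5a rose in CD29 by a log2 fold change of 3.29 (SE 0.32, adjusted p = 1.05e-05) and in DN by 1.71 (SE 0.34, adjusted p = 0.00429). The rise in DN missed the threshold without the first DN library (1.41, adjusted p = 0.131). Wnt2 fell in CD29 by 2.17 on the log2 scale (SE 0.46, adjusted p = 0.00957) and in DN by 1.56 (SE 0.45, adjusted p = 0.0422). The fall in CD29 missed the threshold in 4 of 15 alternatives, among them without either CD29 library (adjusted p = 0.0697 and 0.196). The fall in DN missed it in 11 of 15, including DESeq2 and scaling by library size, and among these without the second AP_CD9Low library (-1.03, adjusted p = 0.214), the second AP_CD9High library (-1.28, adjusted p = 0.174), or either DN library (-1.44, adjusted p = 0.345, and -1.69, adjusted p = 0.197). Between CD29 and DN, Wnt5a was at a log2 fold change of 1.58 (SE 0.36), which did not pass (adjusted p = 0.158). Wnt2b, also a beta-catenin ligand, was at 10.1 and 9.79 CPM in CD29 and at 0.575 to 1.95 in the AP libraries, and rose by 2.95 (SE 0.67, adjusted p = 0.0146). The call of Wnt2b was lost in 6 of 15 alternatives, though its log2 fold change stayed between 2.62 and 3.5 in all of them. It was lost by DESeq2 and by edgeR with legacy = TRUE. It was also lost without the first AP_CD9Low library, the second AP_CD9High library or either CD29 library.

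**Figure D3:**
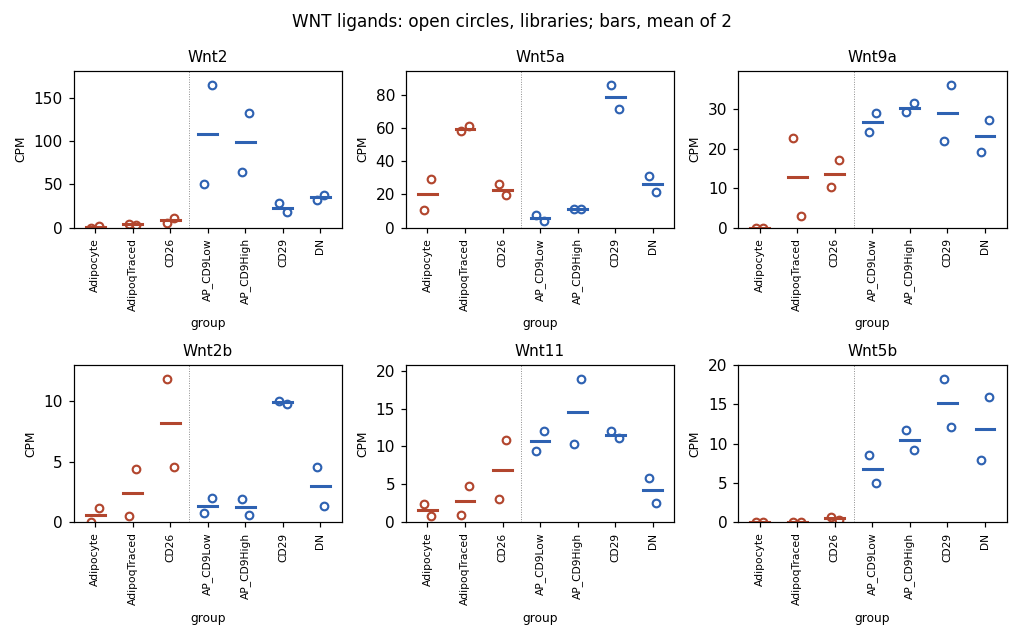
Level in CPM of 6 WNT ligands by group, with each library as an open circle and the mean of 2 as a bar, new set in red and reanalysed set in blue. Wnt2 is highest in the AP groups and Wnt5a in CD29, at 86.0 and 71.3 CPM.

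Other markers moved with these ligands, and their part in the differences was not tested. The 6 pericyte and smooth muscle markers (Rgs5, Cspg4, Mcam, Notch3, Des and Myh11) were all called higher in CD29 than in AP, with sums of 224 and 286 CPM against 3.63 to 16.02, and 4 of 6 were called higher in DN (92.9 and 88.1). The macrophage and monocyte list had 7 of 10 genes called higher in CD29 (3972 and 3524 CPM against 1037 to 2190 in AP) and 9 of 10 in DN (9509 and 8363). Of the 11 keratinocyte markers 8 were called higher in DN, at sums of 106 and 1636 against 7.67 to 27.4 CPM. The other leukocyte list had 4 of its 4 tested genes called higher in DN (582 and 264 CPM against 24.9 to 67.2 in AP) and 2 in CD29 (106 and 81.2). In DN, 4 of 6 skeletal muscle markers (141 and 8.82 CPM against 1.18 to 7.92) and 3 of 6 endothelial markers (40.9 and 101 against 21.3 to 41.7) were also called higher, and in CD29 2 endothelial ones. The dermal papilla list had 1 of its 3 tested genes, Crabp1, called higher in both, and summed to 155 and 221 CPM in CD29, 58.6 and 101 in DN and 2.66 to 23.3 in AP, while its markers Sox2 and Alx4 were at 0 in all of these libraries. Also called higher were 1 adipocyte and 1 keratinocyte marker in CD29 and 2 adipocyte markers in DN. Fibroblast markers went the other way, with 4 of 6 called lower in CD29 and 4 of 6 in DN. In those lists the AP libraries held no read of Myh11, Krt1, Krt15, Krt17, Dsp, Epcam or Perp.

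In the new set Wnt5a was at 10.8 and 29.1 CPM in Adipocyte, 58.2 and 61.0 in AdipoqTraced and 26.3 and 19.4 in CD26. The AdipoqTraced libraries lay above those of both other groups. The log2 fold change against Adipocyte was 1.54 (SE 0.47, adjusted p = 0.0459), a call close to the threshold that was lost in 9 of 13 alternatives, among them without the first Adipocyte library (1.1, adjusted p = 0.402) or either AdipoqTraced library (adjusted p = 0.0906 and 0.0941) and stood at 2.52 without the second Adipocyte library. Against CD26 it was 1.38 (SE 0.39), which did not pass (adjusted p = 0.0598). In AdipoqTraced against CD26, 2 of the 6 pericyte and smooth muscle markers were called higher, with sums of 408 and 236 against 96.5 and 140 CPM. The dermal papilla list, nearly all of it Crabp1, summed to 137 and 151 CPM in AdipoqTraced, 40.0 and 27.2 in CD26 and 6.34 and 2.15 in Adipocyte, and Crabp1 was called higher in AdipoqTraced against both. The part of these in the Wnt5a values was not tested.

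Wnt9a and Fzd6 had no read in either Adipocyte library. Wnt9a was at 22.7 and 2.83 CPM in AdipoqTraced and 10.2 and 17.1 in CD26. The group means were 39.9-fold and 42.7-fold above a floor of 3 reads over the Adipocyte group. That of AdipoqTraced rests mostly on its first library, with 353 reads against 44 in the second. Neither difference passed (adjusted p = 0.0821 and 0.0763). In the reanalysed set Wnt9a stood at 19.2 to 36.2 CPM in every library. Its neighbour Wnt3a lies 16175 bases away on chromosome 11 and reached 0.771 CPM at most. The other close pairs, Wnt1 with Wnt10b, Wnt10a with Wnt6 and Wnt3 with Wnt9b, were low in both genes, at 3.11 CPM or less.

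Wnt5b and Wnt11 were the remaining ligands to reach 10 CPM. Wnt5b was at 0 in all Adipocyte and AdipoqTraced libraries, at 0.657 and 0.207 CPM in CD26, and at 4.97 to 18.2 CPM in the reanalysed set. Wnt11 was at 0.781 to 10.8 CPM in the new set and 2.495 to 18.9 in the reanalysed one. Neither was called in any comparison. Per kilobase of exon, which allows genes to be set beside one another, Wnt2 made up on average 71.7% and 66.4% of the summed ligand level in AP_CD9Low and AP_CD9High, 24.1% in CD29 and 45.8% in DN. Wnt5a made up 1.58% and 2.37% in the AP groups, 24.1% in CD29 and 10.1% in DN. In the new set Wnt5a had on average 62.8% of the ligand level in Adipocyte, 48.6% in AdipoqTraced and 18.4% in CD26. The Adipocyte shares, 70.9% and 54.7%, rest on 46 and 149 Wnt5a reads. In the AdipoqTraced libraries Wnt5a was at 38.5% and 58.7%, and Wnt9a at 35.3% and 6.39%. The CD26 libraries differed in order, with Wnt5a at 23.1%, Wnt9a at 21.1% and Wnt2 at 15.6% in the first and 13.8%, 28.5% and 27.8% in the second.

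Wnt2 lies at chr6:17988940-18030585 on the minus strand. The 250 bases before its RefSeq start (RefSeq, GRCm38.p6, chr6:18030446-18030695, minus strand, printed 5′ to 3′) are shown because it led the ligands of AP and stood lower in both other populations. Its call in DN was lost in 11 of 15 alternatives. RefSeq and GENCODE place the start of Wnt2 at different bases, and the window reaches into the gene as GENCODE draws it. Capitals mark a GC box (GGGCGG, or CCGCCC on the other strand), here 187 bases before the start.
Wnt2: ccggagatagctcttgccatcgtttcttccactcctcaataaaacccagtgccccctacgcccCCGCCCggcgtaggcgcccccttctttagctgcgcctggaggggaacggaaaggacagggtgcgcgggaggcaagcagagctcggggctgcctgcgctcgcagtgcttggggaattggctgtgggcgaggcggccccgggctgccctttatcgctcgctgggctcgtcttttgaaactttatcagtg
On either strand, GGGCGG was found in 32.7% of 32851 RefSeq promoter windows, TATAAA in 12.4% and the TCF/LEF motif CTTTGAT in 3.21%. The Wnt2 window holds no TATAAA and no CTTTGAT. A match is a description of letters, not of a bound site. An entry was found for 34 of the 50 genes, with 43 windows, of which 32 hold GGGCGG, 9 TATAAA and 2 CTTTGAT (those of Wnt11 and Wnt5b).

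R-spondins were low throughout. Rspo3 was at 7.00 and 17.2 CPM in AP_CD9Low, 4.20 and 4.67 in AP_CD9High, 1.56 and 0.122 in CD29 and 2.43 and 0.0832 in DN. The AP libraries lay above all of CD29 and DN, but the differences of -2.95 (SE 0.88) and -2.40 (SE 0.82) on the log2 scale did not pass (adjusted p = 0.0661 and 0.0969). In the new set Rspo3 stayed between 0 and 4.42 CPM, and Rspo1 between 0 and 5.53. Rspo2 and Rspo4 reached at most 2.73 and 1.38 CPM, and no R-spondin was called in any comparison.

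Among the 12 receptors, 2 were called higher and 1 lower in AdipoqTraced than in Adipocyte, 25% against 10.4% of all genes tested. In CD26 against Adipocyte 2 were higher and 2 lower, 33.3% against 10.6%. These left 9 and 8 receptors without a call. Fzd4, known as the receptor of norrin as well as of WNT ligands, was higher in Adipocyte, and Fzd1 and Fzd2 were higher in AdipoqTraced and CD26. Fzd4 was at 179 and 151 CPM in Adipocyte, 25.1 and 15.2 in AdipoqTraced, and 12.8 and 12.0 in CD26. Fzd1 was at 28.6 and 29.3 CPM in Adipocyte, 138 and 126 in AdipoqTraced, and 142 and 214 in CD26. Fzd2 was at 0.469 and 0.781 CPM in Adipocyte, 17.8 and 12.1 in AdipoqTraced, and 18.0 and 17.1 in CD26. For each of the 3 genes, Adipocyte did not overlap either other group, while AdipoqTraced and CD26 lay close together.

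Fzd4 fell by 3.03 on the log2 scale in AdipoqTraced (SE 0.40, adjusted p = 5.86e-05) and by 3.73 in CD26 (SE 0.42, adjusted p = 1.14e-05). With library size alone as the scaling, which moves the median of all genes in AdipoqTraced against Adipocyte from 0.19 to 2.3, the first of these was -0.996 and missed the threshold (adjusted p = 0.0751). Fzd1 rose by 2.18 (SE 0.38, adjusted p = 0.000719) and 2.62 (SE 0.38, adjusted p = 0.000127). Fzd2 rose by 4.53 (SE 1.0, adjusted p = 0.00768) and 4.77 (SE 1.0, adjusted p = 0.00412). The call in AdipoqTraced was lost with only the same set in the fit and with only the compared groups in the fit. Both calls were lost when either Adipocyte library was left out. Without the first, adjusted p was 0.11 in AdipoqTraced and 0.0721 in CD26, and without the second 0.105 and 0.0688.

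Within a library, Fzd4 had 6.25 and 5.16 times the reads of Fzd1 in Adipocyte and at most 0.297 times in any other library. Per kilobase, Fzd4 made up 53.1% of the summed Frizzled level in Adipocyte, 5.75% in AdipoqTraced and 2.95% in CD26. Fzd1 made up 14.9%, 60.5% and 65.9% in the same order. Fzd7 had 14.1% and 27.5% in the Adipocyte libraries, below Fzd1 in the first (15.2%) and above it in the second (14.5%). In the reanalysed set Fzd1 (33.6% to 45.4%) and Fzd2 (32.6% to 37.4%) had the largest shares in each group.

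In both comparisons with Adipocyte, 6 of 6 adipocyte markers were called lower and 6 of 6 fibroblast markers higher. The skeletal muscle markers summed to 154 and 428 CPM in Adipocyte against 2.70 or less in AdipoqTraced and CD26, with 5 of 6 called lower. Keratinocyte markers summed to 83.1 and 229 CPM in Adipocyte, 699 and 417 in AdipoqTraced and 665 and 1884 in CD26, with 1 and 4 of 11 called higher. Of the 10 macrophage and monocyte markers 4 were called higher in each, at sums of 3063 and 1939 CPM in AdipoqTraced and 3206 and 2191 in CD26 against 727 and 1523. Crabp1 of the dermal papilla list was called higher in both. The part of these, and of the mitochondrial share, in the differences from Adipocyte was not tested.

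Fzd1 and Fzd4 are shown by the 250 bases before their RefSeq starts, since their levels moved in opposite directions (RefSeq, GRCm38.p6; Fzd1 chr5:4758217-4758466, minus strand; Fzd4 chr7:89404116-89404365, plus strand; both 5′ to 3′). Capitals mark TATAAA in Fzd1, 202 bases before the start, and GGGCGG or CCGCCC in Fzd4, where neighbouring matches share a base in 1 place.
Fzd1: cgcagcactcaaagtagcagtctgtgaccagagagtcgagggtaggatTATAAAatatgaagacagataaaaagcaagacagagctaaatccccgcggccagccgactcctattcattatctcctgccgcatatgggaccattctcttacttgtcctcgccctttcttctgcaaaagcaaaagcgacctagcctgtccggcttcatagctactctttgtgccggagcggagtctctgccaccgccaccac
Fzd4: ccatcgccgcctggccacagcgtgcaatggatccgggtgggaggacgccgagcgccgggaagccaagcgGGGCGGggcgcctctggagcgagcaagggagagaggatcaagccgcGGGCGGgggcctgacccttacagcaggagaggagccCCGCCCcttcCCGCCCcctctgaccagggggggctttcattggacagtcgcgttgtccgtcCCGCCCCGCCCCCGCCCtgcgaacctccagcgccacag
The Fzd4 window holds 7 GC boxes and 72.8% G or C, and the Fzd1 window none and 51.2%, against a median of 52.4% over all windows. Neither holds CTTTGAT.

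**Figure D4:**
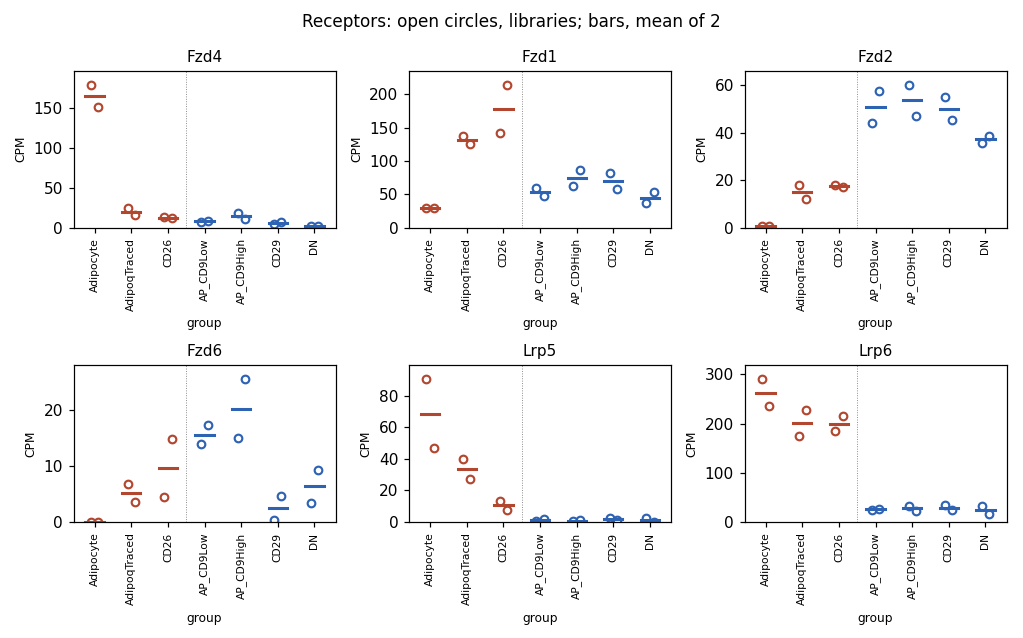
Level in CPM of 4 Frizzled receptors and both LRP co-receptors by group, with each library as an open circle and the mean of 2 as a bar, new set in red and reanalysed set in blue. Fzd4 stands at 179 and 151 CPM in Adipocyte, and Lrp6 is above 174 CPM in the new set and below 34 in the reanalysed one.

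The co-receptors were well read in the new set. Lrp5 was at 90.6 and 46.7 CPM in Adipocyte, 39.7 and 27.4 in AdipoqTraced and 13.4 and 7.26 in CD26. CD26 lay below both other groups, and the Adipocyte libraries lay above those of AdipoqTraced. Lrp5 fell in CD26 against Adipocyte by 2.69 on the log2 scale (SE 0.61, adjusted p = 0.00616). That call was lost in 5 of 13 alternatives, among them DESeq2 and edgeR with legacy = TRUE. It was also lost without the first Adipocyte library (-2.05) or the second CD26 library (-2.29), and with library size alone (-1.0). AdipoqTraced against Adipocyte gave -1.02 (SE 0.55), which did not pass (adjusted p = 0.297) and was 1.01 with library size alone. Lrp6 was at 174 to 290 CPM in all 6 libraries of the new set and was called in none of its comparisons. In the reanalysed set Lrp6 stood at 16.7 to 33.8 CPM and Lrp5 at 0 to 2.69, with no call. The beta-catenin partner Tcf7l2 had the same order between sets (54.9 to 101 CPM, against 7.91 to 24.1), and since no population was in both, set and population cannot be told apart here.

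In the reanalysed set, Fzd6, known for planar cell polarity and hair patterning, was at 13.8 and 17.3 CPM in AP_CD9Low, 15.0 and 25.4 in AP_CD9High, 0.295 and 4.59 in CD29, and 3.37 and 9.31 in DN. The CD29 and DN libraries all lay below AP. It fell in CD29 by 3.02 on the log2 scale (SE 0.74, adjusted p = 0.0264), a call lost in 6 of 15 alternatives, among them without the first CD29 library (-1.95, adjusted p = 0.439), either AP_CD9Low library (adjusted p = 0.0515 and 0.0719) or the second AP_CD9High library (0.0878), while the value without the second CD29 library was -5.87. In DN its log2 fold change of -1.53 (SE 0.62) did not pass (adjusted p = 0.191). Fzd4 was at 6.96 and 8.76 CPM in AP_CD9Low, 18.4 and 10.5 in AP_CD9High and 1.91 and 1.79 in DN, and fell in DN by 2.52 (SE 0.51, adjusted p = 0.00423). Without the first or second DN library the adjusted p was 0.0762 or 0.0594. Fzd6 was not read in Adipocyte, and stood at 6.76 and 3.60 CPM in AdipoqTraced and 4.48 and 14.9 in CD26, without a call. Fzd3, Fzd5, Fzd7, Fzd8, Fzd9 and Fzd10 were called in no comparison, and the last 3 stayed under 10 CPM.

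Secreted antagonists were the most abundant class outside the fat cells, and Sfrp2 made up most of them. Per kilobase, the class summed to 24.95 and 55.97 in Adipocyte, 299 and 221 in AdipoqTraced and 782 and 988 in CD26. In the same unit it summed to 950.3 to 1293 in the AP libraries, 390 and 247 in CD29 and 487 and 363 in DN. Sfrp2 was 62.5% of that sum in Adipocyte and 73.7% to 89.4% in the other groups. The ligands summed to 1.95 to 19.3 CPM per kilobase in Adipocyte and AdipoqTraced, and to 14.6 to 88.9 in the remaining libraries.

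Sfrp2 was at 31.7 and 79.5 CPM in Adipocyte, 463 and 360 in AdipoqTraced, and 1420 and 1809 in CD26. Levels did not overlap among the 3 groups. It rose by 2.86 in AdipoqTraced (SE 0.35, adjusted p = 2.61e-05) and by 4.84 in CD26 (SE 0.37, adjusted p = 1.85e-07) against Adipocyte. AdipoqTraced against CD26 gave a log2 fold change of -1.97 (SE 0.30, adjusted p = 0.00286). All 3 calls held in every alternative tried, and without the second Adipocyte library the rises were 3.75 and 5.76. The fibroblast list had 1 of 6 genes called lower in AdipoqTraced than in CD26 and the keratinocyte list 1 of 11, and their part in the Sfrp2 difference was not tested. In the reanalysed set Sfrp2 was at 1985 and 1817 CPM in AP_CD9Low, 2481 and 2207 in AP_CD9High, 743 and 440 in CD29, and 916 and 668 in DN. Every AP library lay above every CD29 and DN library. The marker lists that moved with CD29 and DN are given with the ligands. Sfrp2 fell by 1.83 in CD29 (SE 0.28, adjusted p = 0.00064) and by 1.41 in DN (SE 0.27, adjusted p = 0.00281), the latter missing the threshold without the second DN library (-1.20, adjusted p = 0.0884). An antisense gene, Gm26771, overlaps 16.1% of the Sfrp2 exon length and was at 1.38 to 70.5 CPM. If the counting did not use strand, which is not given, reads of the overlap cannot be told apart.

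The Sfrp2 gene lies at chr3:83766321-83774316 on the plus strand, and its promoter window is shown as that of the most abundant antagonist (RefSeq, GRCm38.p6, chr3:83766071-83766320, plus strand, 5′ to 3′).
Sfrp2: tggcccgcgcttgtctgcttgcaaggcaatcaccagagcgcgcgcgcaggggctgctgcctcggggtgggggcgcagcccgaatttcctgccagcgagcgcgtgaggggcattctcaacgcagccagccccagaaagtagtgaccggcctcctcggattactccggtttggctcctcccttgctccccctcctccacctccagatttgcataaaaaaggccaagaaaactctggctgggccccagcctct
It holds 63.6% G or C and none of the 3 motifs on either strand. No RefSeq entry was matched for Sfrp4, Sfrp1, Dkk3, Fzd2 and Wnt5a.

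**Figure D5:**
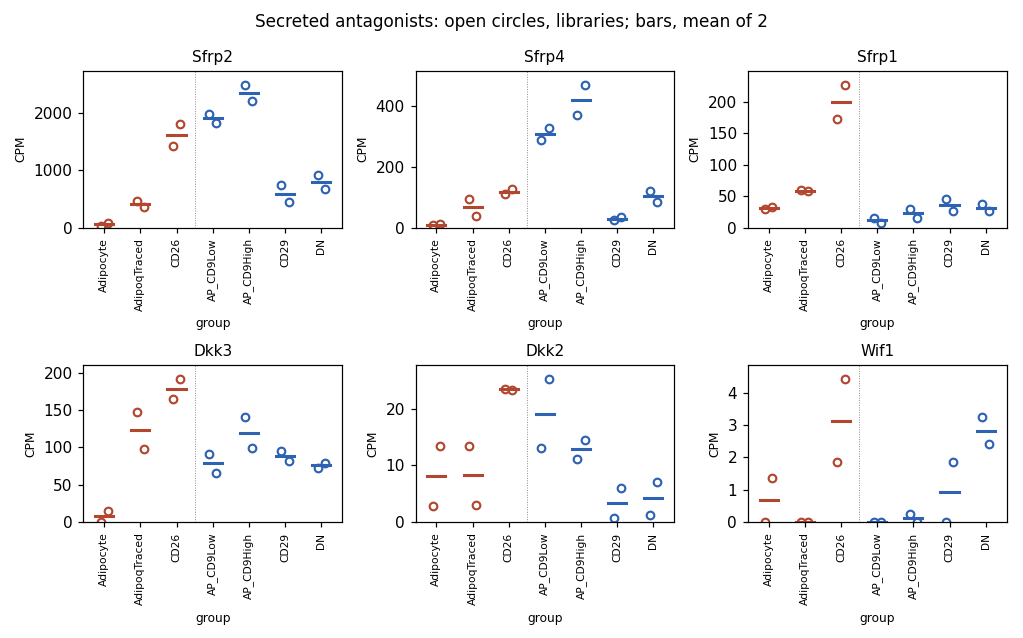
Level in CPM of 6 secreted antagonists by group, with each library as an open circle and the mean of 2 as a bar, new set in red and reanalysed set in blue. In the new set Sfrp2 rises in order from Adipocyte through AdipoqTraced to CD26 without overlap, and in the other set it and Sfrp4 are highest in AP.

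Sfrp4 followed a like order. It was at 7.51 and 11.9 CPM in Adipocyte, 94.2 and 39.4 in AdipoqTraced and 111 and 126 in CD26. It was at 289 and 326 CPM in AP_CD9Low, 370 and 469 in AP_CD9High, 24.6 and 34.4 in CD29 and 122 and 83.4 in DN. Groups did not overlap in the contrasts with Adipocyte or with AP. It rose by 2.76 (SE 0.52, adjusted p = 0.00148) and 3.58 (SE 0.50, adjusted p = 9.47e-05) in AdipoqTraced and CD26, the first of these 2.0 without the first AdipoqTraced library, and fell by 3.61 in CD29 (SE 0.35, adjusted p = 8.83e-06) and by 1.81 in DN (SE 0.31, adjusted p = 0.00109). Between CD29 and DN the log2 fold change was -1.81 (SE 0.35), which did not pass by edgeR (adjusted p = 0.0656) but did by DESeq2 (adjusted p = 0.00266) and with only this set in the fit (0.0174). Within a library, Sfrp2 had 30.2 and 12.8 times the reads of Sfrp4 in CD29, against 4.71 to 6.86 times in the AP libraries and 7.52 and 8.01 in DN.

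Sfrp1 and Dkk3 were higher in CD26 than in Adipocyte. Sfrp1 was at 29.8 and 33.2 CPM in Adipocyte, 60.4 and 57.4 in AdipoqTraced and 173 and 227 in CD26, with no overlap among the groups. It rose in CD26 against Adipocyte by 2.66 (SE 0.44, adjusted p = 0.000556). In AdipoqTraced it was lower than in CD26 (log2 fold change -1.76, SE 0.38, adjusted p = 0.0166). That call was lost when any of the 4 libraries was left out, with an adjusted p of 0.0964 and 0.0663 for the AdipoqTraced libraries and 0.0549 and 0.163 for the CD26 ones. The difference from Adipocyte in AdipoqTraced, 0.90 (SE 0.46), did not pass (adjusted p = 0.266). In the other set Sfrp1 was at 7.998 to 29.4 CPM in AP and 25.5 to 45.6 in CD29 and DN, with no call (adjusted p = 0.0692 and 0.112).

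Dkk3, a divergent Dickkopf member that is not known as a strong LRP antagonist, was at 0 and 14.8 CPM in Adipocyte, 148 and 97.8 in AdipoqTraced and 166 and 192 in CD26. Both groups lay above both Adipocyte libraries. It rose by 3.94 (SE 0.58, adjusted p = 0.000154) and 4.48 (SE 0.57, adjusted p = 3.47e-05), values that rest on an Adipocyte library with no read, since they were 3.11 and 3.69 without it, while without the second one the fit gave 14.4 and 15.0, which depend on the prior count. In the other set Dkk3 stayed at 66.0 to 141 CPM, with no call. Dkk2 was at 23.6 and 23.4 CPM in CD26 and at 2.82 and 13.5 in Adipocyte, without a call. It was at 11.2 to 25.3 CPM in AP, 0.619 and 6.01 in CD29 and 1.17 and 7.11 in DN, below AP in every library, but it did not pass (adjusted p = 0.09 and 0.119).

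Wif1 was nearly absent from the AP libraries, with 6 reads in 1 of 4, and had 100 and 58 reads in DN (3.24 and 2.41 CPM). It was called higher in DN (adjusted p = 0.0441), but the fitted log2 fold change of 6.73 is set by these few AP reads and gives no usable size. The call was lost in 11 of 15 alternatives, including leaving out any single library of either group, with adjusted p between 0.0932 and 0.256. Sfrp5 reached 2.89 CPM at most, and Dkk1 and Dkk4 were not read.

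Of the effectors, Ctnnb1, which encodes beta-catenin, was at 149 to 298 CPM in every library, with no call in any comparison. Exon overlap with Ulk4, at 15.1% of its length, involves a gene of at most 10.9 CPM. Axin2, a feedback target of beta-catenin signalling, was at 9.39 and 11.7 CPM in Adipocyte, 4.50 and 5.14 in AdipoqTraced, 1.67 and 0.691 in CD26 and at most 1.01 in the reanalysed set. In the new set the groups did not overlap and stood in the order Adipocyte, AdipoqTraced, CD26. Axin2 passed in none of its comparisons. The log2 fold change was -3.12 (SE 1.1, adjusted p = 0.0685) in CD26 against Adipocyte, -1.14 (SE 0.85, adjusted p = 0.491) in AdipoqTraced against Adipocyte, and 1.98 (SE 1.0, adjusted p = 0.284) in AdipoqTraced against CD26. With library size alone, AdipoqTraced against Adipocyte turned to 0.93.

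Lef1 had 6.44 and 0 CPM in AdipoqTraced, 5.32 and 2.14 in CD26, 0.704 and 0 in Adipocyte and 1.21 in 1 CD29 library, and was at 0 in the rest. Tcf7 stayed under 6.28 CPM, and Tcf7l1 and Tcf7l2 were read everywhere, at 12.0 to 37.0 and 7.91 to 101 CPM. No effector was called in any comparison.

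A further 59 genes of the pathway, among them WNT secretion factors, other receptors, other antagonists and targets, were fixed as a list, and 55 were tested. In AdipoqTraced against Adipocyte 8 were higher and 1 lower, 16.4% against 10.4% of all genes. CD26 against Adipocyte gave 7 higher and 2 lower (16.4% against 10.6%), and AdipoqTraced against CD26 1 higher (1.82% against 3.86%). CD29 against AP gave 4 higher and 3 lower (12.7% against 4.39%), and DN against AP 3 higher and 3 lower (10.9% against 6.75%). The other comparisons gave 0 calls by edgeR, with 1 and 7 genes at an unadjusted p under 0.05 in AP_CD9High against AP_CD9Low and CD29 against DN, respectively. The medians were 0.37, 0.48 (0.21 with bounds), 0.12, 0.17 and -0.13 in the first 5 comparisons, in the order given.

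Ccn5, a matricellular protein known as a WNT target, was at 0 and 0.976 CPM in Adipocyte, 67.1 and 41.6 in AdipoqTraced and 37.3 and 64.1 in CD26. It rose by 6.66 (SE 0.86, adjusted p = 4.67e-05) and 6.55 (SE 0.87, adjusted p = 5.91e-05), with 5.86 and 5.78 without the first Adipocyte library, and 13.3 and 13.2 without the second, which leaves a group with no read. Ccn5 was at 442 to 739 CPM in AP, 118 and 106 in CD29 and 192 and 182 in DN. It fell by 2.37 in CD29 (SE 0.29, adjusted p = 7.86e-05) and by 1.63 in DN (SE 0.28, adjusted p = 0.00109). Kremen1, which binds Dickkopf proteins at the LRP co-receptors, was at 3.29 and 6.25 CPM in Adipocyte, 52.1 and 46.4 in AdipoqTraced and 34.6 and 31.3 in CD26, and rose by 3.33 (SE 0.48, adjusted p = 0.000119) and 2.75 (SE 0.50, adjusted p = 0.00105), or 3.96 and 3.42 without the second Adipocyte library.

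Ptk7, a co-receptor of planar cell polarity, was at 24.4 and 38.4 CPM in AdipoqTraced, 6.93 and 5.05 in CD26 and 1.88 and 0.976 in Adipocyte. It was higher in AdipoqTraced than in CD26 by 2.38 (SE 0.47, adjusted p = 0.00976), a call lost in 4 of 13 alternatives. Those were the fits with only the same set, with only the compared groups, and without either CD26 library. In CD29, Ptk7 was at 43.5 and 57.5 CPM against 4.47 to 7.77 in the AP libraries, and it rose by 3.19 (SE 0.33, adjusted p = 1.05e-05). The DN libraries, at 17.5 and 21.6 CPM, also lay above those of AP. Myc, a target of beta-catenin and many other signals, was at 334 to 436 CPM in AP, 134 and 106 in DN and 140 and 97.1 in CD29, and it fell in DN by 1.68 (SE 0.24, adjusted p = 0.000237).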

How the data were processed

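RNA sequencing of 14 libraries gave 1 table of whole-number read counts per Ensembl gene, deposited without normalisation. Per the labels' protocols, RNA was amplified with the SMARTer Ultra Low RNA kit. Per the submitters' processing notes, CASAVA 1.8.2, HISAT2 2.1, StringTie 1.3.3b, DESeq2 and the build mm10 were used; the strand setting and read filters are not given in the notes, so counting was treated as unaware of strand. 0 columns belonged to other samples. Symbols came from GENCODE M21, and 52403 of 52636 rows matched.

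The test was edgeR 4.0.16 in R 4.3.3 (estimateDisp with robust = TRUE, glmQLFit with legacy = FALSE and robust = TRUE, glmQLFTest, two-sided), with TMM scaling and filterByExpr by group, which left 18394 genes. The 14 libraries were fitted together with 1 coefficient a group and 7 residual degrees of freedom. AP weighted the AP_CD9Low and AP_CD9High coefficients by 0.5 each. Since both have libraries numbered 2 and 4 in the labels, the 4 AP libraries may not be separate samples. With 2 libraries a group, a p-value speaks only to how these libraries vary, which may be technical, since the labels do not name separate animals. Benjamini-Hochberg adjustment ran over all genes tested, and a standard error is the absolute log2 fold change over the square root of its F statistic. On simulated counts the fit recovered the sign and size of known changes, but more than the nominal share of its calls were false. A bound against a group at 0 uses 3 reads over that group and covers counting error only, since amplified reads are not independent molecules.

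The 50 genes, the further pathway list and the markers were chosen with earlier results of these data known. Genes with values in every library were those called in a comparison, the highest of each role in each group, and Axin2, Lef1, Ctnnb1 and Lrp6; of the further list, the 2 called with the smallest p. Wnt9a, Wnt5b, Wnt11, Dkk2 and the other members printed with values were added after their values were seen. DESeq2 1.42.0, other scalings, filters, fits and libraries left out were tried as alternatives.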

Additional observations from a re-analysis of the deposited data

How the results depend on the processing

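Scaled by library size alone, the WNT genes called rose to 15 in AdipoqTraced against Adipocyte (15 higher, 0 lower) and 18 in CD26 against Adipocyte (17 higher, 1 lower), as the median of all genes moved from 0.19 to 2.3 and from 0.24 to 2. Under it, AdipoqTraced against Adipocyte reversed for Axin2 (0.93) and Lrp5 (1.01). AdipoqTraced against CD26 gave 1 call instead of 2 with legacy = TRUE and 1 with only the same set in the fit. CD29 against AP gave 3 instead of 6 with legacy = TRUE. CD29 against DN gave 2 with DESeq2 and 1 with only the same set in the fit, instead of 0. The cause of these moves was not tested. When 1 library was left out at a time, the calls ranged from 5 to 7 (AdipoqTraced against Adipocyte), 6 to 8 (CD26 against Adipocyte), 1 to 2 (AdipoqTraced against CD26), 3 to 7 (CD29 against AP), 2 to 5 (DN against AP) and 0 to 0 (AP_CD9High against AP_CD9Low and CD29 against DN).

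Dkk3, Fzd1, Sfrp2 and Sfrp4 against Adipocyte, Fzd4 and Sfrp1 in CD26 against Adipocyte, Sfrp2 in AdipoqTraced against CD26 and Sfrp2, Sfrp4 and Wnt5a in CD29 against AP kept their calls in every alternative run. The labels number the libraries 1 and 2 in the new set and 2, 3 and 4 in the other. Deviations of same-numbered libraries from their group means correlated at -0.0283 to 0.0494, none over 0.1. With 2 libraries a group the deviations mirror each other, and number 3 has no partner. These values therefore cannot settle whether same-numbered libraries are paired. A replicate block ended the calls of the WNT genes and of Ccn5 in DN against AP, but not that of Myc. Number 3 belonged to the second DN library alone, so the block took up that library and left DN to the first. For DN against AP the block thus cannot tell a shared replicate effect from the loss of a library. In CD29 against AP the block ended the calls of Wnt2 and Fzd6 (adjusted p = 0.0526 for both), where 5 were called and 4 shared. It also ended that of Wnt5a in AdipoqTraced against Adipocyte (0.0784). Outside DN against AP, the other calls of WNT and pathway genes printed with an adjusted p held under the block. Genes at 0 in 1 group, and those at 10 CPM or less, were limited by depth, most of all in Adipocyte.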
